A study of Mus musculus with 10 samples.

Results

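Nuclear oxidative phosphorylation genes encode most of the subunits of the mitochondrial respiratory chain and of the ATP synthase. They were taken here as every protein-coding gene whose symbol begins with Nduf, with Sdh followed by a, b, c or d, with Uqcr, with Cox followed by a digit, or with Atp5. The annotation held 111 such genes and 108 of them were among the 29883 genes of the count table. Cox8c, Ndufb11b and a second entry named Atp5po were not among the genes analysed here. The study sequenced polyadenylated RNA from the nucleus accumbens (NAc), a ventral striatal region involved in reward, of male mice of 2 inbred strains, 5 C57BL/6J (B6) and 5 DBA/2J (D2). All mice were ethanol-naive and untreated and, per the methods, were killed at 9 weeks of age, and each library came from a separate mouse. The BXD recombinant inbred lines descend from a cross of these strains. The comparison asked which of these genes differed in mRNA level between the strains.

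In the respiratory chain, complex I (NADH dehydrogenase) and complex II (succinate dehydrogenase) pass electrons to ubiquinone, complex III passes them to cytochrome c, and complex IV (cytochrome c oxidase) passes them to oxygen. Complexes I, III and IV pump protons across the inner mitochondrial membrane, and complex V (ATP synthase) uses the return of those protons to make ATP. The catalytic cores of complexes I, III and IV and part of complex V are encoded by mitochondrial DNA, whereas complex II is encoded wholly in the nucleus. Neurons depend heavily on this pathway, since ion pumping after synaptic activity consumes much of their ATP.

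Total counts per library were between 96977262 and 116776714, and 105 of the 108 members had an average of 100 counts or more. The summed level of 9 striatal projection neuron markers, in CPM (counts scaled to a common library size), was 4710 to 6010 in B6 and 3900 to 4740 in D2, and Drd2, the lowest of them, had a mean of 125 CPM. Of those 9 markers, 6 were lower in D2 and none was higher. The summed level of 7 cortical neuron markers was 157, 166 and 236 CPM in B6 replicates 2, 1 and 4, and 990 and 1010 CPM in B6 replicates 3 and 5. In the D2 mice it was 309 to 679 CPM, and none of these 7 markers differed between the strains by edgeR's quasi-likelihood test, with 1 at an unadjusted p under 0.05 and 0 called by DESeq2. B6 replicates 3 and 5 therefore stood apart from the other B6 libraries. They were also more alike than any other pair of libraries within a strain. The mean chi-square between their counts over 15388 genes was 4.89, against 17.5 to 119 for the other pairs. They are labelled as separate mice and entered the tests as such, and why they were so alike was not tested. Both lay on the same side of the other 3 B6 libraries in 42 of the 108 members. The same count was not made over all genes, so it does not set the members apart from other genes. Of 5 oligodendrocyte markers, 3 were lower in D2. The summed level of those 5 was 3980 to 5820 CPM in B6 and 3010 to 4400 CPM in D2. The part of these marker differences in the results was not tested, and in bulk tissue fewer cells of a type and less RNA per cell cannot be told apart.

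Most nuclear oxidative phosphorylation genes had nearly equal mRNA levels in the 2 strains, and the few that differed moved in both directions. With a threshold of 0.05 on the adjusted p (edgeR's quasi-likelihood test, Benjamini-Hochberg adjustment over all 29883 genes), 23 of the 108 members (21.3%) differed between strains, against 18.3% of all genes. Of these, 10 were higher in D2 (background 8.5%) and 13 were lower in D2 (background 9.83%). Among genes averaging 100 or more counts, 22 of 105 members (21.0%) differed against 23.8% of all such genes, so the share of members called was near the background. The ranges of the 5 B6 and the 5 D2 mice did not overlap for 21 members, 2 of which were not called, against 16.0% of all genes. Without B6 replicates 3 and 5 the count of called members was 18 (16.7%), against 19.2% of all genes, so the members went from above to below the share of all genes. The split by direction moved with the scaling, from 10 higher and 13 lower to 15 higher and 12 lower when libraries were scaled by total counts alone. All genes turned in the same way, from 2541 higher and 2937 lower to 3012 higher and 2468 lower.

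The differences were small in size. The median log2 fold change of the members, D2 over B6, was 0.00, as was that of all genes. The fitted difference lay within 0.1 of zero on the log2 scale for 77 of the 108 members (71.3%), against 31.6% of all genes. With an average of 100 or more counts the shares were 73.3% of members and 50.3% of all genes, with median standard errors of 0.044 and 0.059. This was not particular to the members. The share was 72.5% of proteasome subunit genes, 58.9% of cytosolic ribosomal protein genes and 100% of 16 pyruvate dehydrogenase and citrate cycle genes. Only 5 of the 108 members had a log2 fold change beyond 0.5 in either direction, and all 5 belonged to complex IV by symbol. They were Cox5b-ps, Cox7a2l, Cox6a2, Cox7a1 and Cox7b2, the last of which did not pass the test.

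**Figure D1:**
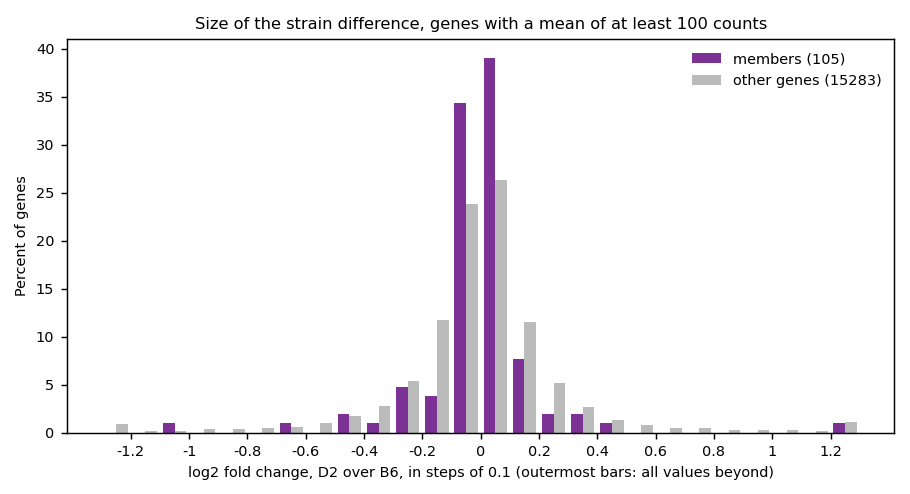
Percent of genes (vertical axis) by log2 fold change of D2 over B6 in steps of 0.1 (horizontal axis), for the 105 members and for the other genes that passed the same minimum of 100 counts on average. The bars on either side of 0 hold 34.3% and 39.0% of the members, and 23.8% and 26.3% of the other genes.

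Summed over the 84 genes of the subunits proper, the level was 8233 ± 239 CPM in B6 and 8256 ± 310 CPM in D2 (mean ± SD, n = 5 each), a difference of 0.284%. The sums for complexes I, II and III were 1.16%, 2.61% and 1.91% higher in D2, and those for complexes IV and V fell by 1.5% and 0.458%. For every complex the ranges of the 2 strains overlapped. The highest complex IV sums among the B6 mice were those of replicates 3 and 5, at 1431 and 1463 CPM, with the other 3 at 1250 to 1336 CPM. D2 replicate 4 had the lowest sum of all 10 mice for complexes I, IV and V, and it was the lowest of the 5 D2 libraries in 75 of the 108 members.

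**Figure D2:**
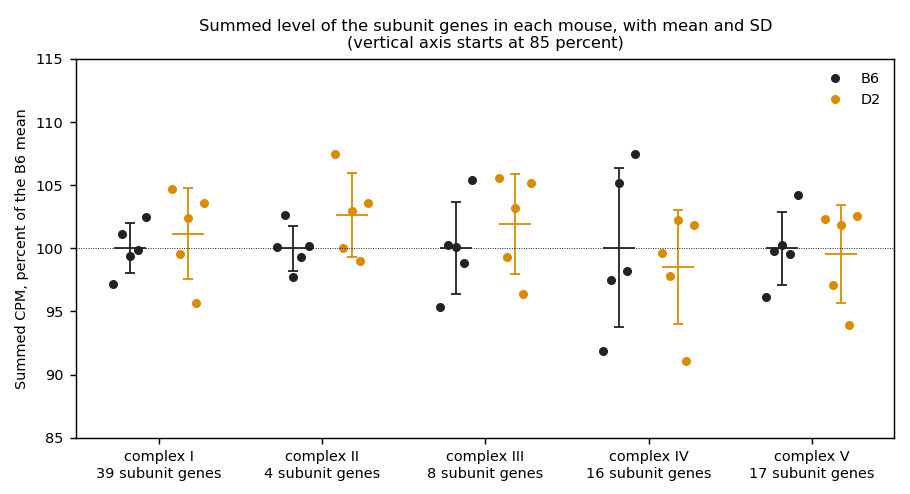
Summed CPM of the subunit genes of each complex (horizontal axis) in each mouse, as a percent of the B6 mean (vertical axis, starting at 85 percent), with mean and SD for 5 B6 and 5 D2 mice. The strains overlapped in each complex, and the D2 means lay between 1.5% below and 2.61% above the B6 means.

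The members' levels differed far more between genes than between strains. Per kilobase of the Ensembl canonical transcript, the highest level was that of Atp5f1b, the catalytic beta subunit of the ATP synthase, at 483 CPM per kilobase. The highest in the other complexes were Cox4i1 at 379, Ndufa4 at 236, Sdha at 126 and Uqcr10 at 113 CPM per kilobase. None of these 5 genes differed between the strains, with log2 fold changes of -0.06 (Atp5f1b), 0.00 (Cox4i1), 0.00 (Ndufa4), -0.00 (Sdha) and 0.01 (Uqcr10). The sign of the last 4 changed with the normalization or the filter. The 21 assembly factors, which help to build the complexes without remaining in them, had a median of 8.7 CPM per kilobase.

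**Figure D3:**
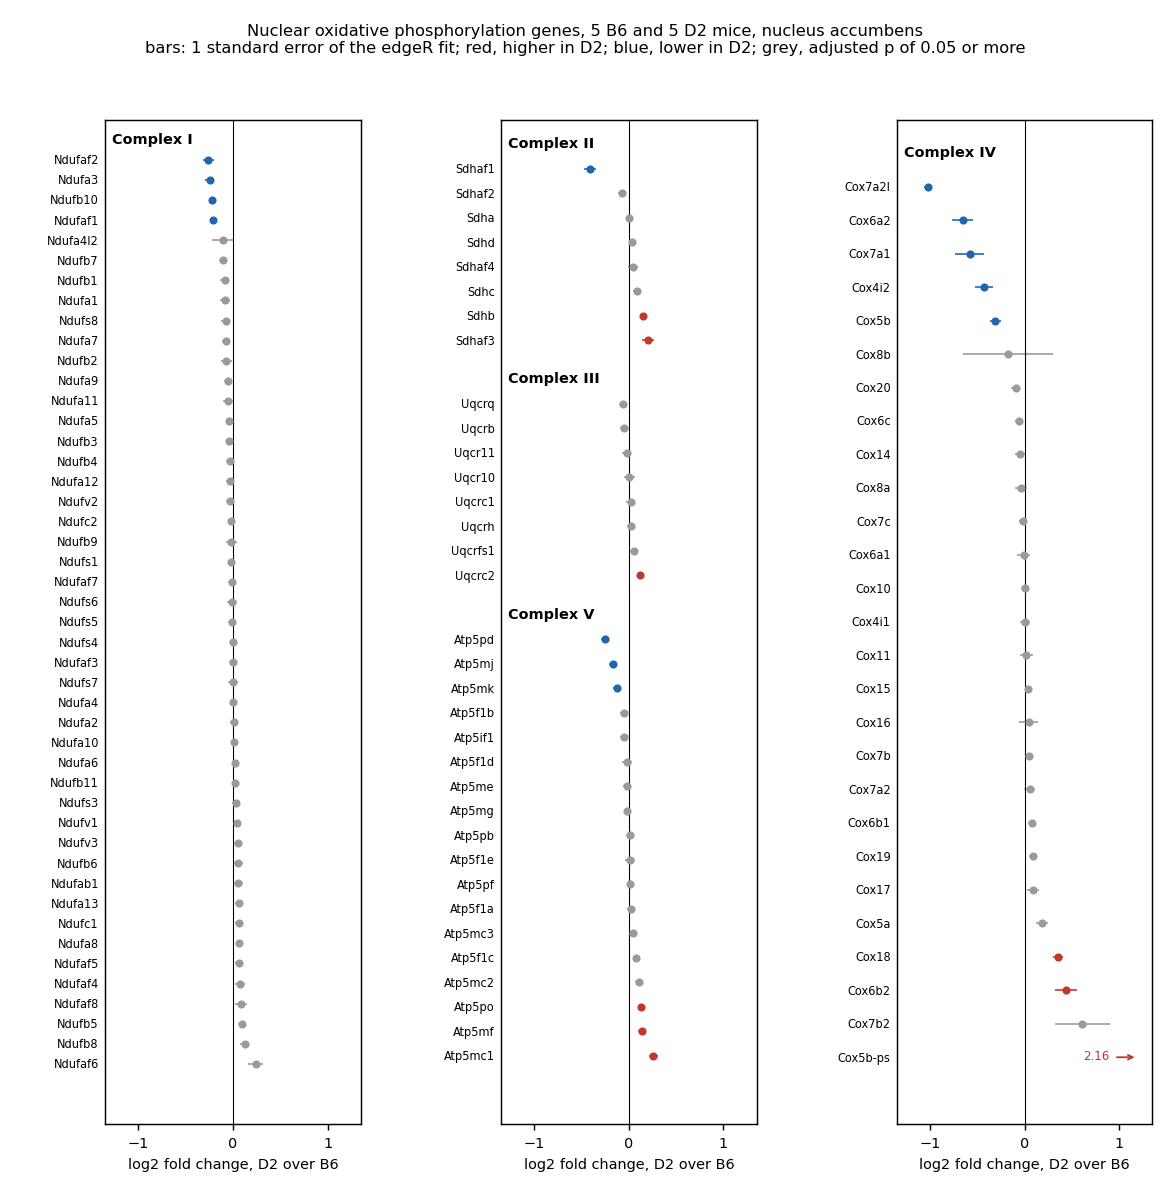
Log2 fold change of D2 over B6 (horizontal axes) for the members by complex, all but 1 of them shown, with 1 standard error of the edgeR fit. Red and blue points mark members higher and lower in D2 at an adjusted p under 0.05, and the arrow stands for Cox5b-ps at 2.16, beyond the axis.

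The nuclear genes of this pathway are known targets of the transcription factors NRF1, GABPA (an ETS factor) and YY1, so the promoters were searched for short letter strings of these factors. The window ran from 250 bases before to 50 after the start site in RefSeq (GRCm38.p6), both strands were read, and 87 of the 108 members were matched by symbol. A gene was counted once if any of its promoters held the letters. The NRF1 letters CGCATGCG were present for 12.6% of the 87 members and for 2.07% of all 27025 genes with a promoter in the reference. This background was not matched to the members for gene type, base content or number of promoters. For the GABPA letters CCGGAAG the shares were 29.9% and 9.93%, and for the YY1 letters AAGATGGC they were 14.9% and 3.19%. At least 1 of the 3 strings was found for 47.1% of the 87 members and for 14.1% of all 27025 genes. The strings do not contain one another, and CGCATGCG reads the same on both strands. Of the 15 called members that were matched, 0 held the NRF1 letters, 5 the GABPA letters and 2 the YY1 letters. Among the members named for their values below, NRF1 letters were found for Cox6a1 and Atp5mc2, neither of which was called. Atp5mc2 was close to the threshold (edgeR adjusted p = 0.059). GABPA letters were found for the called members Atp5pd, Ndufaf1, Sdhaf1, Sdhaf3 and Sdhb and for the uncalled members Cox6a1, Cox6b1 and Cox8a. The stretches below show such matches in uncalled and called members, each read 5′ to 3′ along the gene's strand with 20 bases on either side and the matched letters in capitals. They lay at chr5:115349092-115349139, chr15:102671061-102671108, chr11:115419931-115419977 and chr2:119662826-119662872, all on the minus strand, and at chr6:6955871-6955917 on the plus strand. In Atp5pd the letters appear as the reverse complement.
Cox6a1, NRF1: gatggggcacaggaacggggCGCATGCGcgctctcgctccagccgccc
Atp5mc2, NRF1: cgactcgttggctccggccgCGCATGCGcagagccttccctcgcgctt
Atp5pd, GABPA: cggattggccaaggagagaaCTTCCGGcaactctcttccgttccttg
Ndufaf1, GABPA: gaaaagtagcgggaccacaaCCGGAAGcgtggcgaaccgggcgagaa
Sdhaf3, GABPA: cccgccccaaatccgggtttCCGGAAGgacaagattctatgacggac
These reference sequences come from the B6 genome, and D2 alleles were not analysed here.

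In complex I, the large NADH-oxidizing entry point of the chain, 5 of 47 members (10.6%) differed between strains, 1 higher and 4 lower in D2. The background was 18.3% of all genes and 23.8% of genes averaging 100 or more counts, as all 47 did. By role they were 3 of 39 subunits and 2 of 8 assembly factors. The 42 members that did not pass had log2 fold changes between -0.11 (Ndufa4l2) and 0.24 (Ndufaf6).

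Ndufb10, an accessory subunit of the membrane arm, fell in D2 from 91.2 ± 2.88 to 78.2 ± 3.2 CPM (mean ± SD, n = 5), a log2 fold change of -0.22 (SE 0.04, edgeR adjusted p = 0.00079). Ndufaf2, an assembly chaperone, had 10.5, 11.2, 9.73, 9.75 and 10.3 CPM in the B6 mice and 9.41, 8.83, 7.97, 8.15 and 8.65 CPM in the D2 mice. The ranges did not overlap, and the lowest B6 and the highest D2 mouse were close together. Its log2 fold change was -0.26 (SE 0.06, edgeR adjusted p = 0.01). Its exons share 1955 bases with an antisense transcript. Ndufaf1, another assembly factor of the membrane arm, fell in D2 from 16.3 ± 0.393 to 14.1 ± 0.397 CPM (mean ± SD, n = 5), a log2 fold change of -0.21 (SE 0.04, edgeR adjusted p = 0.0025). Ndufa3, which was picked out after its values were seen to complete the count of 4, was lower in D2 with a log2 fold change of -0.25 (edgeR adjusted p = 0.0029). Its exons share bases with the antisense genes Oscar and Tfpt. Ndufa4 was kept in this group by its symbol, although its protein is now known to associate with complex IV. It had 125 ± 5.46 CPM in B6 and 125 ± 4.91 CPM in D2 (n = 5 each).

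In complex II, which is also an enzyme of the citrate cycle, 3 of 8 members (37.5%) differed, 2 higher and 1 lower in D2. The background was 18.3% of all genes and 23.8% of genes averaging 100 or more counts, as all 8 did. The count is too small to read against the background. Sdhb, the iron-sulfur subunit, rose in D2 from 89.8 ± 1.61 to 99.6 ± 3.95 CPM (mean ± SD, n = 5), a log2 fold change of 0.15 (SE 0.03, edgeR adjusted p = 0.0066). The flavoprotein subunit Sdha had 388 ± 7.81 CPM in B6 and 388 ± 12.3 CPM in D2. Sdhaf1, an assembly factor needed for the iron-sulfur subunit, had 10.4, 12.0, 11.6, 10.96 and 11.1 CPM in the B6 mice and 7.48, 8.6, 8.63, 8.14 and 9.28 CPM in the D2 mice. All D2 mice were below all B6 mice. Its log2 fold change was -0.41 (SE 0.07, edgeR adjusted p = 0.00059), or 1.33-fold lower in D2. Sdhaf3, a further assembly factor of the same subunit, had 11.3 ± 0.91 CPM in B6 and 12.9 ± 0.699 CPM in D2, with overlapping ranges and a log2 fold change of 0.20 (SE 0.06, edgeR adjusted p = 0.047). That call was lost without any 1 of B6 replicates 2 to 5 and of D2 replicates 1, 3, 4 and 5, with adjusted p between 0.0638 and 0.12.

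In complex III, 1 of 8 members (12.5%) differed, against 18.3% of all genes and 23.8% of those averaging 100 or more counts, as all 8 did. Uqcrc2, a core subunit facing the matrix, rose in D2 from 153 ± 3.11 to 166 ± 5.31 CPM (mean ± SD, n = 5), a log2 fold change of 0.11 (SE 0.03, edgeR adjusted p = 0.025). The call was lost without B6 replicate 3 or 4 and without D2 replicate 1, 3 or 5, with adjusted p between 0.0521 and 0.0783. Its exons share 1476 bases with antisense genes. The other 7 members had log2 fold changes between -0.06 (Uqcrq) and 0.06 (Uqcrfs1). Uqcrb, which binds ubiquinone, was among them at -0.06 (edgeR adjusted p = 0.3).

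Complex IV held the members with the largest differences. Of its 27 members, 8 (29.6%) differed between strains, 3 higher and 5 lower in D2. The background was 18.3% of all genes and 23.8% of genes averaging 100 or more counts, as 24 of the 27 did. Cox7a2l (ENSMUSG00000024248, chr17:83765970-83824759 on GRCm39) encodes a homologue of the Cox7a subunits that joins complexes III and IV in a supercomplex, and C57BL/6 mice are known to carry a shortened form of this protein. Its levels in B6 replicates 1 to 5 were 94.4, 98.2, 95.3, 93.9 and 101 CPM, and in D2 replicates 1 to 5 they were 48.1, 48.2, 48.8, 43.3 and 48.5 CPM. Every D2 mouse was far below every B6 mouse. The log2 fold change was -1.03 (SE 0.04, edgeR adjusted p = 2.0e-09), or 2.04-fold lower in D2. Its exons share 816 bases with the antisense genes Eml4 and Gm66623, and its transcript has 1 near-identical copy elsewhere in the genome.

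Cox5b-ps (ENSMUSG00000079941, chr13:21685120-21685616, minus strand, GRCm39) is an intronless copy of Cox5b that the annotation lists as protein-coding. Its levels were 0.616, 0.996, 0.881, 1.21 and 0.781 CPM in the B6 mice and 3.79, 4.21, 3.94, 4.01 and 4.09 CPM in the D2 mice. The D2 values were all above the B6 values, with a log2 fold change of 2.16 (SE 0.15, edgeR adjusted p = 2.9e-07). Cox5b itself (ENSMUSG00000061518, chr1:36730530-36734495, plus strand), a subunit that binds zinc, had 137, 154, 164, 156 and 158 CPM in the B6 mice and 114, 117, 133, 121 and 134 CPM in the D2 mice. The ranges did not overlap, and Cox5b was lower in D2 with a log2 fold change of -0.31 (SE 0.06, edgeR adjusted p = 0.0018).

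Both genes are uncertain, because the coding sequences of Cox5b and Cox5b-ps are 99.2% identical in the reference, with 3 differences in 390 bases. The differences are C114T, A213G and G243A, with the base of Cox5b first and positions counted from 1 at the first coding base, and all 3 fall at the third position of a codon. The stretch of coding bases 94 to 263 holds all of them and is shown for both genes on GRCm39, with the differing bases in capitals. It lies within chr1:36730761-36731617 in Cox5b, where introns have been removed, and at chr13:21685326-21685495 in Cox5b-ps. How reads that match both genes were counted is not given in the sources used here.
Cox5b: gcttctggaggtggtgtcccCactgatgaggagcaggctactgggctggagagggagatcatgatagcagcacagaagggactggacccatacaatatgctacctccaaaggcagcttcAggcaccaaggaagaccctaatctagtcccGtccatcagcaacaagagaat
Cox5b-ps: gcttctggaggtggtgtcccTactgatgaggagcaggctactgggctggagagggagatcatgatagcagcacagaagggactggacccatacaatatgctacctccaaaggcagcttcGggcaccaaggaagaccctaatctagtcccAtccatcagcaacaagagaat
In all, 14 members had at least 1 copy of 95% or more identity over at least 50% of the transcript, with 30 copies among them. Of these 14, 5 were called, beside 21.3% of all members and 18.3% of all genes. That count is too small to read against the background. Apart from Cox7a2l, Cox5b and Cox5b-ps, the called members with such a copy were Atp5pd and Atp5mc1.

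Several members of complex IV are tissue or condition variants of a ubiquitous subunit, and 4 of these variants differed between the strains at low levels. Cox6a2, the variant of heart and skeletal muscle that is also expressed in some interneurons, had 2.72, 2.73, 3.23, 2.65 and 3.52 CPM in the B6 mice and 1.81, 1.66, 2.24, 1.9 and 1.82 CPM in the D2 mice. The D2 mice were all lower, with a log2 fold change of -0.65 (SE 0.11, edgeR adjusted p = 0.00089). Cox4i2, the variant known for its induction by low oxygen, had 1.54, 1.46, 1.55, 1.66 and 1.73 CPM in the B6 mice and 1.14, 1.15, 1.24, 1.11 and 1.25 CPM in the D2 mice. It too was lower in all D2 mice, with a log2 fold change of -0.43 (SE 0.09, edgeR adjusted p = 0.0046).

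Cox7a1, the muscle variant, had 0.715, 0.862, 0.647, 0.574 and 0.686 CPM in the B6 mice and 0.51, 0.362, 0.534, 0.418 and 0.5 CPM in the D2 mice. The strains did not overlap, and the log2 fold change was -0.58 (SE 0.16, edgeR adjusted p = 0.02). Its mean was 62.3 counts, and the call was lost without B6 replicate 2 (adjusted p = 0.0524). Cox6b2, known for its expression in testis, had 1.44, 1.16, 1.06, 1.15 and 1.04 CPM in the B6 mice and 1.47, 1.75, 1.39, 1.59 and 1.73 CPM in the D2 mice. B6 replicate 1 lay above the lowest D2 mouse, while the other 4 B6 mice lay below all D2 mice. Its log2 fold change was 0.44 (SE 0.12, edgeR adjusted p = 0.019), and the call was lost without B6 replicate 3 (adjusted p = 0.0502), without B6 replicate 5 (0.0518) and without both (0.103). The ubiquitous counterparts Cox4i1, Cox6a1, Cox6b1 and Cox7a2 did not pass the test, with log2 fold changes of 0.00, -0.01, 0.08 and 0.05. For Cox6a1 the sign changed with the normalization and without B6 replicates 3 and 5.

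Cox18, the membrane insertase for a tail of the mitochondrially encoded second subunit, was the 1 of 9 complex IV assembly factors that differed. It had 16.1, 16.3, 13.8, 16.0 and 14.3 CPM in the B6 mice and 19.3, 18.9, 19.1, 20.3 and 20.1 CPM in the D2 mice. All D2 mice were higher, B6 replicates 3 and 5 were the lowest of all, and the log2 fold change was 0.35 (SE 0.05, edgeR adjusted p = 0.00043). Of the remaining variants, Cox7b2 was at 0.213 ± 0.115 CPM in B6 and 0.326 ± 0.0429 CPM in D2 (log2 fold change 0.61, edgeR adjusted p = 0.19) and passed only without B6 replicate 2 (adjusted p = 0.0065). Cox8b, the muscle variant of Cox8a, was near the limit of detection with a mean of 7.7 counts. Cox7b and Cox8a did not pass, with log2 fold changes of 0.04 and -0.04.

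**Figure D4:**
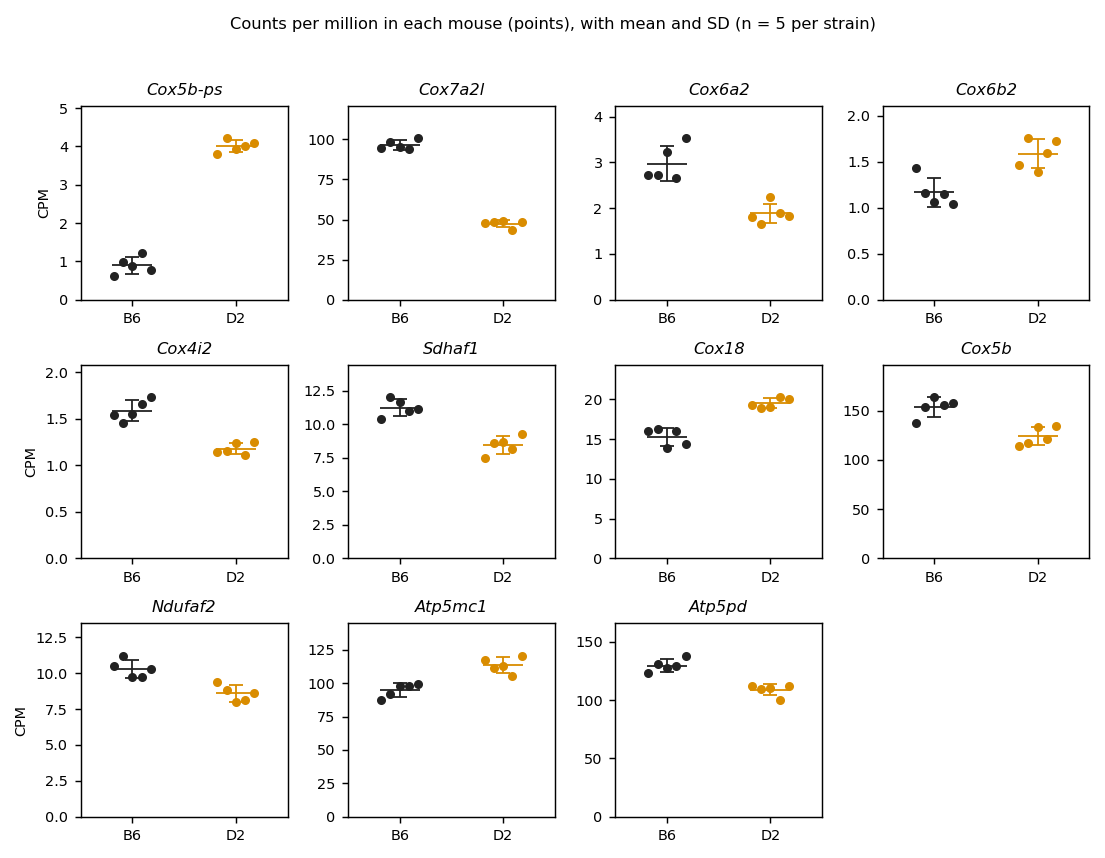
CPM (vertical axes, from 0) in each of 5 B6 and 5 D2 mice for 11 of the 12 called members with the largest log2 fold change and an average of 100 counts or more, with mean and SD. The strains overlapped only in Cox6b2, and the widest separations were those of Cox5b-ps and Cox7a2l.

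In complex V, 6 of 18 members (33.3%) differed, 3 higher and 3 lower in D2, and all 6 were subunits. The background was 18.3% of all genes and 23.8% of genes averaging 100 or more counts, as all 18 did. Atp5mc1, 1 of 3 genes that encode the same proton-carrying c subunit of the rotor, had 87.0, 91.8, 98.1, 97.7 and 99.2 CPM in the B6 mice and 117, 111, 113, 105 and 121 CPM in the D2 mice. All D2 mice were higher, with a log2 fold change of 0.26 (SE 0.05, edgeR adjusted p = 0.0015). The other two c subunit genes, Atp5mc2 and Atp5mc3, had log2 fold changes of 0.10 (edgeR adjusted p = 0.059) and 0.04 (adjusted p = 0.58). Atp5mc2 passed the threshold under total-count scaling (adjusted p = 0.0315) and by DESeq2 (0.0297). It also passed by edgeR with a filter on low counts (adjusted p = 0.0419) and among genes averaging 100 or more counts (0.029). The same held with the cortex marker level as a covariate (edgeR adjusted p = 0.0137) and without B6 replicate 4 (0.041).

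Atp5pd, a subunit of the peripheral stalk, had 123, 131, 127, 129 and 138 CPM in the B6 mice and 112, 110, 110, 100.4 and 112 CPM in the D2 mice. All D2 mice were lower, and D2 replicate 4 was the lowest. The log2 fold change was -0.25 (SE 0.04, edgeR adjusted p = 0.00076). Its exons share 472 bases with the antisense gene Kctd2. The other 4 called members of complex V, Atp5po, Atp5mj, Atp5mk and Atp5mf, were outside the rule for named genes and are listed after their values were seen. Their log2 fold changes were 0.12, -0.17, -0.13 and 0.14, and the ranges of Atp5mk and Atp5mf overlapped between the strains. Exons of Atp5po, Atp5mj and Atp5mk share bases with other genes. For Atp5po these include the second entry of that name, on the same strand. The calls of Atp5mk and Atp5mf were lost in several of the fits that left out 1 mouse, and that of Atp5mj without B6 replicates 3 and 5 together. Atp5if1, the inhibitor of the ATP synthase, was not called, with a log2 fold change of -0.05.

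Shares within paralog families were computed per mouse from CPM per kilobase of the canonical transcript, since the paralogs take the same place in a complex. Within the Cox7a family, Cox7a2l made up 46.6% ± 1.66 in B6 and 29.4% ± 0.467 in D2 (SD, n = 5), and Cox7a2 made up 52.4% ± 1.78 in B6 and 69.8% ± 0.468 in D2. The 2 strains did not overlap in either share. Cox7a1 made up at most 1.19%, with overlapping ranges. Among the c subunit genes, Atp5mc1 made up 42.3% ± 1.3 in B6 and 45.8% ± 0.508 in D2, while Atp5mc3 made up 42.6% ± 0.779 and 39.5% ± 0.414. Neither share overlapped between the strains, and that of Atp5mc2 did. Cox6a2 was 1.54% ± 0.0898 of the Cox6a sum in B6 and 0.994% ± 0.114 in D2, and Cox4i2 was 0.55% ± 0.0304 of the Cox4i sum in B6 and 0.407% ± 0.0197 in D2, again with no overlap. The shares in the Cox6b, Cox7b, Cox8 and Ndufa4 families overlapped. Absolute shares depend on the transcript length used. Each share that did not overlap kept its direction when raw counts were used without division by length.

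**Figure D5:**
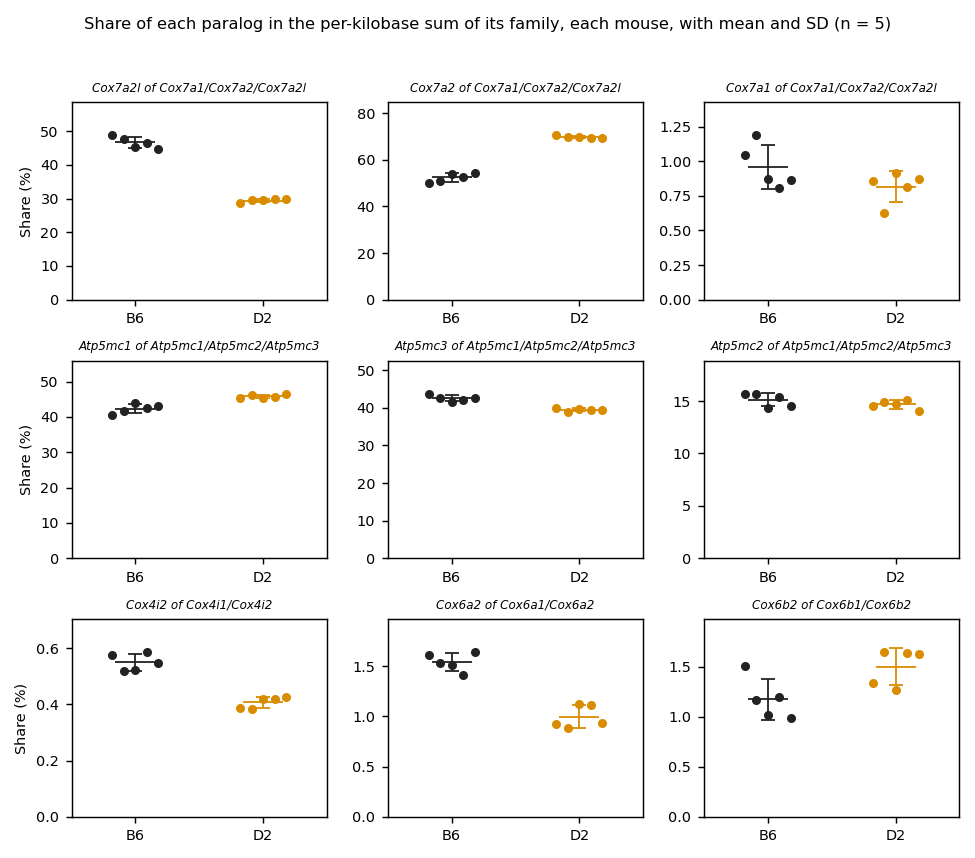
Share of each paralog in the per-kilobase sum of its family (vertical axes, percent, from 0) in each mouse, with mean and SD for 5 B6 and 5 D2 mice. The mean share of Cox7a2l was 46.6% in B6 and 29.4% in D2, and the shares of Cox7a2l and Cox7a2 were the farthest apart between the strains.

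Genes that work with the members but were not chosen by the symbol rule were read from the same fit. Of 27 other assembly factors measured, 7 (25.9%) differed, 1 higher and 6 lower in D2, beside 23.8% of all genes averaging 100 or more counts. The lower ones were Uqcc6, a complex III assembly factor, with a log2 fold change of -1.13 (edgeR adjusted p = 1.8e-07), and Tmem70, Uqcc2, Tmem126a, Bcs1l and Uqcc4 with values between -0.38 and -0.16. The higher one was Higd2a at 0.10. Of the electron carrier genes Cyc1 and Cycs, neither passed by edgeR or DESeq2 or had an unadjusted p under 0.05. Cyc1 encodes a subunit of complex III, but its symbol lies outside the rule, so it is not in the counts and sums of that complex. Of 16 pyruvate dehydrogenase and citrate cycle genes, 0 passed by edgeR, with 1 at an unadjusted p under 0.05, and 0 passed by DESeq2. Of 7 regulators, Ppargc1a, a coactivator of mitochondrial gene expression, was higher in D2 with 57.7 ± 3.81 CPM in B6 and 68.8 ± 7.54 CPM in D2 (log2 fold change 0.25, edgeR adjusted p = 0.024), while Nrf1, Gabpa and Yy1 did not pass. Among 7 carriers and channels, Ckmt1, a mitochondrial creatine kinase, was higher (log2 fold change 0.45) and Slc25a3, the phosphate carrier, was lower (-0.26) in D2.

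The 13 protein genes of the mitochondrial genome, which encode the partners of the nuclear subunits, had a different distribution. Of these, 12 were lower in D2 and none was higher, with a median log2 fold change of -0.43. The 12 were counted very unevenly. Mean counts were 362400 to 1594000 for mt-Nd1, mt-Nd2, mt-Co1, mt-Nd4, mt-Nd5 and mt-Cytb. They were only 47.5 to 665.4 for mt-Co2, mt-Atp8, mt-Atp6, mt-Co3, mt-Nd3 and mt-Nd4l. The largest log2 fold changes, -4.25 for mt-Nd3 and -1.56 for mt-Nd4l, were among these low counts. Why these counts were low was not tested. Mitochondrial genes made up 4.61% to 4.97% of the counts in the B6 mice and 3.84% to 4.02% in the D2 mice. Among the cytosolic ribosomal protein genes, 22 of 90 (24.4%) differed, 10 higher and 12 lower, with a median of 0.03. Among the proteasome subunits, 5 of 40 (12.5%) differed, 2 higher and 3 lower, with a median of 0.02. The background was 18.3% of all genes. The nuclear members, with a median of 0.00, were like these nuclear multi-subunit groups in their near-zero medians, and the difference between the nuclear and the mitochondrial medians was not tested.

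The position of the members in the genome was also described. For each member the share of other tested genes starting within 1 Mb that differed between the strains was counted. This share had a median of 26.9% for the 23 called members and 15.4% for the 85 others, beside 18.3% of all genes. Near Sdhaf1 on chromosome 7, 45 of 100 neighbours were called, and the window also holds Cox7a1 and Cox6b1. Near Ndufb10, Ndufaf1 and Sdhb the shares were 44.8%, 43.8% and 44.0%. Some uncalled members had shares as high, among them Uqcrb with 55.1% and Cox6b1 with 46.9%. Near Cox6a2 the share was 4.6%, and near Cox4i2 it was 10.7%. Neighbouring genes share reads, domains and inherited blocks and are not independent, so these shares are given as a description only.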

How the data were processed

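The authors isolated NAc RNA from 5 B6 and 5 D2 male mice and sequenced 1 polyA library per mouse. The methods name a stranded kit, whereas the labels name only a company protocol. Reads were trimmed with fastp and aligned with STAR 2.7.10b to GRCm39, the B6 reference, and SAMtools 1.6 was used. D2 reads that carry strain variants can align less well there. The deposited table holds unnormalized read counts that the authors made with featureCounts. The strand setting of featureCounts is not given in the sources used here. Whether reads of a gene and its antisense partner were told apart is therefore not known. Of the 108 members, 72 share exon bases with another gene, 13 of them called, beside 23 called among all 108. The authors removed genes with a median of 0, and their columns of means and medians over all samples were not used.

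Symbols, positions and lengths came from GENCODE vM39 (29519 of 29883 gene identifiers matched). Copies were searched with blastn 2.17.0 at 95% identity. Strains were compared with edgeR 4.0.16 (R 4.3.3; TMM, glmQLFit, glmQLFTest, two-sided, strain only, no further filter), and p was adjusted by the Benjamini-Hochberg method across the table, with a threshold of 0.05. CPM used TMM-scaled library sizes. Total counts of 96977262 to 116776714 per library make counting error small for members with high counts, though not for those with few. On simulated counts for this comparison over 29883 genes, edgeR found 93 of 100 genes given a log2 change of 1 and 37 of 100 given a log2 change of 0.3, with 8 false calls.

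The members, lists and tests were chosen with earlier results of these data known. Named members were the 12 called members with the largest change and an average of 100 counts or more, the member with the highest level per kilobase and the 2 smallest p in each complex, the listed paralog families, and called assembly factors. The values of 1 member are not reported here, though it enters the counts and sums. Alternatives were other scalings (DESeq2 size factors, total counts, upper quartile), DESeq2 1.42.0, filters on low counts, a threshold of 0.01, a replicate block, leaving out mitochondrially encoded genes, the cortex marker level as a covariate, leaving out each mouse, and leaving out B6 replicates 3 and 5, the last chosen after seeing the data.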

Additional observations from a re-analysis of the deposited data

Results flagged for a closer look

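In groups of 5 mice, a mouse was marked when its gap to the nearest other mouse, divided by the whole range, exceeded Dixon's 95% critical value. Of 84 groups examined over the named members and the summed levels, 6 were marked, and chance marks about 1 in 20. In 5 of the 6 the mouse was D2 replicate 4, at the low end. It had 43.3 CPM of Cox7a2l (nearest D2 mouse 48.1), 273 CPM of Cox4i1 (nearest 301), 100.4 CPM of Atp5pd (nearest 110), 72.5 CPM of Ndufb10 (nearest 79.1) and 45.7 CPM of Uqcr10 (nearest 51.1). The sixth was B6 replicate 2, at the high end of Cox7b2 with 0.412 CPM (nearest 0.202). These marks are not independent, since the members of a library share its composition. Without D2 replicate 4, 22 members (20.4%) were called, against 15.5% of all genes.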

How the results depend on the processing

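Across 20 settings at the threshold of 0.05, no called member changed direction, and 16 of the 23 called members were called in all of them. In the 10 fits that left out 1 mouse each, 17 of the 23 were called throughout, and the count of called members was between 18 and 24, with 6 to 10 of them higher in D2. The lowest of these was without B6 replicate 3. The share called in these fits was 16.7% to 22.2% of the members and 15.5% to 19.0% of all genes. At a threshold of 0.01, 14 members were called, 5 of them higher in D2, and 3415 of all genes were called, 1579 higher and 1836 lower. With the cortex marker level as a covariate, 27 members and 7864 of all genes (26.3%) were called. The share of the 108 members called was then below that of all genes, whereas without the covariate it was above. Genes called higher in D2 were 3935 in place of 2541, and members called higher in D2 were 14 in place of 10. Why more genes were called was not tested. The median log2 fold change of the members stayed within its spread between mice (SD 0.04) under all settings in which it was recomputed, and the largest shift of the median of all genes was 0.03, with total counts.

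The replicate numbers gave no evidence of pairing, since the correlations of deviations between mice of the same number were 0.411, -0.445, 0.412, 0.01 and -0.326. With a replicate block, 18 members (16.7%) and 4731 of all genes (15.8%) were called. The calls of Uqcrc2 (adjusted p = 0.0594), Cox7a1 (0.0592) and Sdhaf3 (0.0608) were among those lost under the block.

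Members near zero that were not called changed sign between settings, all on the log2 scale. Sdha was 0.00134 with DESeq2 size factors, 0.0308 with total counts, 0.00134 by DESeq2, 0.00195 among genes averaging 100 or more counts and 0.00807 with the cortex covariate. Ndufa4, Uqcr10 and Cox4i1 were -0.00259, -0.00103 and -0.00252 with filterByExpr, -0.00385, -0.00228 and -0.00392 without the mitochondrially encoded genes, and -0.00679, -0.0114 and -0.0165 with the cortex covariate. Cox6a1 was 0.0212 with total counts and 0.0989 without both B6 replicates 3 and 5, where Cox8a was 0.0617 and Cox8b 0.398. Leaving out 1 mouse gave -0.0242 to 0.0335 for Cox4i1, -0.0561 to 0.0237 for Cox6a1, -0.408 to 0.0603 for Cox8b, -0.0173 to 0.0226 for Ndufa4, -0.0188 to 0.0112 for Sdha and -0.0237 to 0.0476 for Uqcr10.

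Depth limits the members with few counts, among them Cox8b, Cox7b2, Cox7a1, Cox4i2 and Cox6b2, and with 5 mice per strain small differences can be missed.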
